A study of Mus musculus with 12 samples.

Results

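The RNA of 9 genes that encode transporters of cisplatin, organic cations and copper was followed in 12 mouse kidneys, out of 27179 genes in the table. The genes were listed by name, not chosen by their levels: Slc22a2, Slc47a1, Slc31a1, Slc31a2, Atp7a, Atp7b, Abcc2, Abcc4 and Abcb1a. All 9 passed the filter on low values, which asked for 3 or more libraries at or above 1 TPM. Atp7b had exactly 3, all of them wild-type. TPM is a level of RNA per transcript length, scaled to the same total in every library.

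Whole kidneys came from mice whose age is given as 8 to 12 weeks and whose background is given as mixed. Each of the 4 groups had 3 animals. In the paper, mice were 8 to 12 weeks old when injected. Kidneys of its repeated low-dose cisplatin model were taken 5 weeks after the first injection. The paper also states that its FAN1KO mice had been backcrossed to a single strain for 5 generations or more. Mice of both genotypes, wild-type or FAN1KO, received either saline or cisplatin, a platinum drug, injected into the abdomen at 2 mg per kg each week for 5 weeks. FAN1 is a nuclease that repairs DNA crosslinks, and the FAN1KO mice (γGT1-Cre;Fan1-/-) lack it where the Ggt1 promoter drives Cre, in the proximal tubule, so that the other cells of the kidney keep the gene. The study asked how loss of FAN1 alters the kidney's response to cisplatin.

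Cisplatin enters proximal tubule cells from the blood side, largely through the organic cation transporter OCT2, the product of Slc22a2, and leaves for the urine through MATE1, the product of Slc47a1. The copper importer CTR1 (Slc31a1), its relative CTR2 (Slc31a2) and the copper pumps ATP7A and ATP7B have also been tied to platinum handling. MRP2 (Abcc2), MRP4 (Abcc4) and P-glycoprotein (Abcb1a and Abcb1b in the mouse) are ATP-driven exporters.

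Fan1 itself did not separate the genotypes at the level of the whole gene. Its TPM was 1.98 to 3.80 in wild-type and 1.17 to 2.28 in FAN1KO kidneys under saline, and 2.33 to 3.57 and 1.55 to 3.51 under cisplatin. Which part of the gene is deleted is not given in the sources used here, so these values do not check the labels. Markers of the proximal tubule were present in every library, with 10 genes summing to at least 2973 TPM. In each group 1 library (replicate 3 of wild-type saline and of FAN1KO cisplatin, replicate 1 of the other groups) held RNA of Y-linked genes and almost no Xist (0.0528 to 0.277 TPM), while the other 8 held Xist at 46.6 to 70.8 TPM. Y-linked genes are carried by males and Xist is expressed in females, but the labels do not give the animals' sex. Under saline, Fan1 was lower in FAN1KO than in wild-type kidneys within both kinds of library. It was at 1.54 and 2.28 against 3.35 and 3.80 TPM without Y-linked RNA, and at 1.17 against 1.98 TPM with it. Under cisplatin it was at 2.72 and 3.51 against 3.32 and 3.57 TPM without, which overlap, and at 1.55 against 2.33 TPM with. The levels of several transporters differed between these 2 kinds of library, by a log2 of 1.09 for Slc22a2 and −1.25 for Abcc4. The main results are therefore given with and without a term for the mean log2 level of Y-linked RNA (the Y-linked term).

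Per length, Slc47a1 had the most RNA of the 9 genes, with a mean of 397 TPM over the 12 libraries (249 to 599), and exceeded Slc22a2 in 12 of 12. Slc22a2 followed at 190 TPM (61.8 to 335) and exceeded Slc31a1, at 74.5 TPM (60.2 to 91.9), in 12 of 12 as well. Abcc2 came next at 46.9 TPM and was below Slc31a1 in 10 libraries. The means of Abcc4 (27.0 TPM) and Slc31a2 (25.3 TPM) did not differ beyond their spread, and Abcc4 was the higher in 6 of 12 libraries. Nor did those of Abcb1a (6.12 TPM) and Atp7a (5.70 TPM), where Abcb1a was the higher in 5. Atp7b was lowest in all 12 libraries, at 0.618 to 1.11 TPM from 73 to 261 reads. The plot of TPM by library shows the groups and the 4 libraries with Y-linked RNA.

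**Figure D1:**
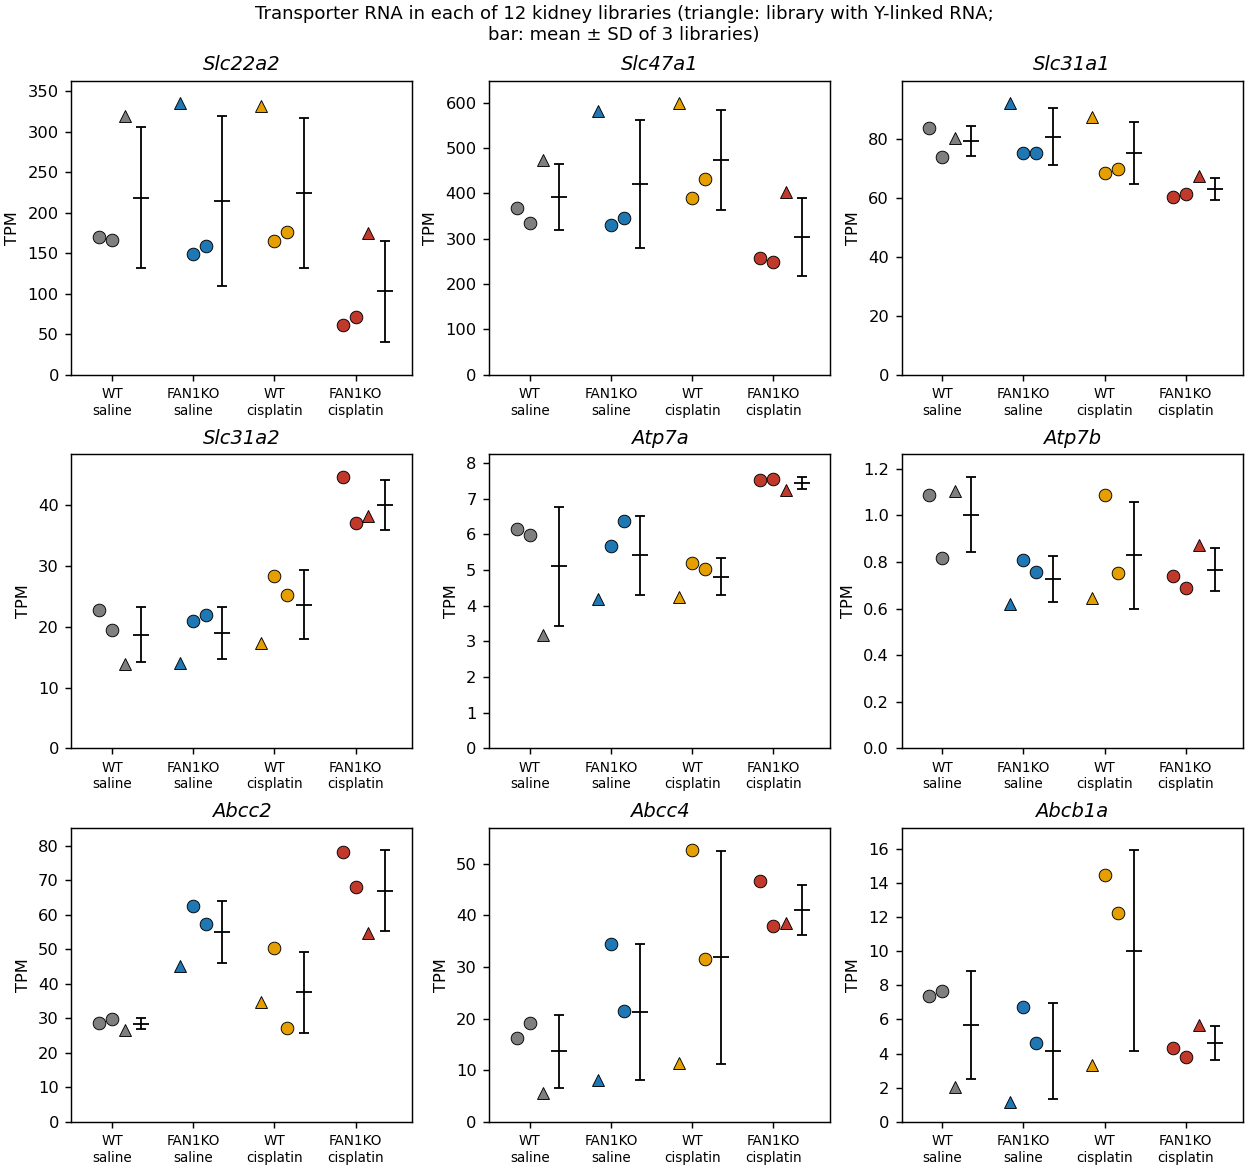
TPM (vertical axes, from 0) of the 9 transporters in each of 12 kidney libraries, by group, with circles for libraries without and triangles for libraries with Y-linked RNA and bars for the mean ± SD of 3 libraries. The triangles are highest in each group for Slc22a2 and Slc47a1, and the FAN1KO cisplatin libraries stand above all others for Slc31a2 and Atp7a.

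Slc22a2 and Slc47a1, the uptake and export steps for organic cations, were both lowest in cisplatin-treated FAN1KO kidneys without Y-linked RNA. In replicates 1, 2 and 3, Slc22a2 was at 170, 167 and 319 TPM in wild-type saline kidneys and at 335, 149 and 159 TPM in FAN1KO saline kidneys. Under cisplatin it was at 332, 166 and 177 TPM in wild-type and at 61.8, 71.9 and 175 TPM in FAN1KO kidneys. The library with Y-linked RNA was the highest of its group each time, at 1.89 to 2.62 times the mean of the other libraries, and the groups overlapped through it. With all 12 libraries and no account of this split, Slc22a2 under cisplatin was 1.20 ± 0.46 (SE) lower on the log2 scale in FAN1KO than in wild-type (limma, adjusted p = 0.0811) and did not pass the threshold of 0.05. Leaving out 1 library at a time gave −1.66 to −0.89 (limma, adjusted p of 0.0231 to 0.273), and Slc22a2 passed in 1 of those 12 fits, that without FAN1KO cisplatin replicate 3, which keeps the wild-type library with Y-linked RNA.

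Compared like with like, the difference was present in both kinds of library. Among those without Y-linked RNA the mean TPM of Slc22a2 under cisplatin was 171 in wild-type and 66.8 in FAN1KO kidneys (2 each), a change of −61.0% with no overlap. In the single library with Y-linked RNA in each group it was 332 and 175 TPM, a change of −47.2%. With the mean log2 level of Y-linked RNA as a term in the limma fit, the difference was −1.24 ± 0.10 (SE, adjusted p = 2.1e-05), and that of cisplatin against saline in FAN1KO kidneys was −1.14 ± 0.10 (adjusted p = 1.2e-05). In wild-type kidneys the same fit gave 0.0046 for cisplatin against saline, with a 95% interval of −0.21 to 0.22. The genotype by treatment interaction, the difference between those effects, was −1.15 ± 0.14 (adjusted p = 0.0007).

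Slc47a1 followed the same order with smaller differences. It was at 368, 335 and 473 TPM in wild-type saline and at 583, 332 and 346 TPM in FAN1KO saline kidneys. Cisplatin-treated wild-type kidneys held 599, 391 and 432 TPM and cisplatin-treated FAN1KO kidneys 258, 249 and 403 TPM. The FAN1KO libraries without Y-linked RNA were below every other library, and the third overlapped the wild-type range. The difference under cisplatin was −0.65 ± 0.27 (SE) over all libraries (limma, adjusted p = 0.0983). It was −0.87 to −0.47 when 1 library was left out (limma, adjusted p of 0.0420 to 0.297) and passed in 1 of 12 such fits, again that without FAN1KO cisplatin replicate 3 alone. With the Y-linked term it was −0.67 ± 0.09 (adjusted p = 0.0003), and the interaction was −0.72 ± 0.12 (adjusted p = 0.0028). The change of mean TPM of Slc47a1 was −38.3% in the libraries without and −32.7% in those with Y-linked RNA.

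Both genes rest on many reads, from 2763 for Slc22a2 and from 14223 for Slc47a1 upwards, so counting error was small beside the spread between animals. The ratio of Slc22a2 to Slc47a1 TPM within a library was 0.239, 0.289 and 0.434 in cisplatin-treated FAN1KO kidneys against 0.449 to 0.575 in FAN1KO saline kidneys, with no overlap (exact permutation test, two-sided, p = 0.1, the smallest that 3 against 3 allows). It overlapped the 0.409 to 0.554 of cisplatin-treated wild-type kidneys (exact permutation p = 0.3). Over all 20 exact permutation tests of 5 such ratios in 4 comparisons, the lowest Benjamini-Hochberg adjusted p was 0.286, so no ratio passed the threshold. Markers of the proximal tubule, the cell that uses both transporters, moved in the same comparison: 6 of 10 were lower in FAN1KO than in wild-type kidneys under cisplatin, beside 4.37% of all genes, and their summed TPM was 2973 to 5418 against 6025 to 9101. In whole kidney, fewer cells of a type and less RNA per cell cannot be told apart, and the part of the marker loss in these transporters was not tested.

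Over the 12 libraries the genes most like Slc22a2 were Hykk (Pearson r of log2(TPM + 1) = 0.99), Grhpr (0.98) and Galnt14 (0.98). For Slc47a1 they were Acot12 (0.96), Grhpr (0.96) and Slc22a6 (0.95), the last an organic anion transporter of the proximal tubule. For Slc31a1 they were Itfg1 (0.97), Reps2 (0.96) and Fam210a (0.95). These r describe libraries that share genotype, treatment and the Y-linked split, and carry no test.

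The copper transporters Slc31a1 and Slc31a2 moved in opposite directions in FAN1KO kidneys given cisplatin. The genes lie close together on mouse chromosome 4 of GRCm38.p6, Slc31a2 at chr4:62280393-62298412 and Slc31a1 at chr4:62360583-62391769, where the latter overlaps Fkbp15. Their RefSeq promoters (250 bases before to 50 after the start, 5′ to 3′ on the gene's strand) are shown with those of Slc22a2 and Abcc2. Slc31a2, Slc31a1 and Abcc2 were called over all libraries in at least 1 comparison. Slc22a2 was called only in alternative fits such as that with the Y-linked term, which also called Atp7a and Abcc4, not shown. Capitals mark matches to the core of the metal response element (TGCACNC or TGCGCNC) or of the antioxidant response element (TGACNNNGC) on either strand.
Slc31a2 (chr4:62286179-62286478): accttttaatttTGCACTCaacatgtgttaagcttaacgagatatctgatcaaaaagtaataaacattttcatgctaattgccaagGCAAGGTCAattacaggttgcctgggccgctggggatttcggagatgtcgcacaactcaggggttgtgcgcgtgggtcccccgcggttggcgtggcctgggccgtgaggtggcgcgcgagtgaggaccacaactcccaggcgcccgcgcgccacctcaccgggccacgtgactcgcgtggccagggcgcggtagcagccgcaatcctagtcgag
Slc31a1 (chr4:62360451-62360750): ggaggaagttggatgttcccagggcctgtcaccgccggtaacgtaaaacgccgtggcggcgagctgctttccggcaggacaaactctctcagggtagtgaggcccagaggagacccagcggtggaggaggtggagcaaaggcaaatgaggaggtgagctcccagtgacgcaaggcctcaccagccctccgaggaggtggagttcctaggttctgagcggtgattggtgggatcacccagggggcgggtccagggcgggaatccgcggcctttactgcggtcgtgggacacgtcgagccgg
Abcc2 (chr19:43782058-43782357): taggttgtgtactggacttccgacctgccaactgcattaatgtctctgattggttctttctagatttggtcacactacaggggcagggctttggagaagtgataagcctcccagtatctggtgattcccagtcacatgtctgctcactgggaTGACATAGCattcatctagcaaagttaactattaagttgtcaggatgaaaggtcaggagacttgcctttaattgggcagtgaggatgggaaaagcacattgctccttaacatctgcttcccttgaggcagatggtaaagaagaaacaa
Slc22a2 (chr17:12583939-12584238): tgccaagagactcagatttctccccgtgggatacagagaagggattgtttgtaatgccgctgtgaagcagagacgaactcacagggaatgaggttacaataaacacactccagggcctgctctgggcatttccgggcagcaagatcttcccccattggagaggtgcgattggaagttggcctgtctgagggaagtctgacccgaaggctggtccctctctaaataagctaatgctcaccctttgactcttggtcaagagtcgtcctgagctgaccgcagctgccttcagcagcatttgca
The Slc31a2 window lies inside the span of the gene given above, at a start site within it. It held 1 match to each core, the metal one at position −238 from the start and the antioxidant one, on the opposite strand, at −164. Abcc2 held 1 antioxidant match at −98, and the windows of Slc31a1 and Slc22a2 held neither. Of the transporters whose windows are not shown, Atp7a and Atp7b held the metal core, Abcb1a the antioxidant core and Abcc4 both. Among 32851 promoter windows of the same length, 25.7% held the metal core and 12.4% the antioxidant core, so such matches are common and describe the letters only. A promoter was found for 8 of the 9 genes, all but Slc47a1.

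Slc31a2, which encodes CTR2, was higher in cisplatin-treated FAN1KO kidneys than in any other library. It was at 22.8, 19.5 and 13.8 TPM in wild-type saline and at 14.0, 21.0 and 21.9 TPM in FAN1KO saline kidneys. With cisplatin it was at 17.4, 28.3 and 25.3 TPM in wild-type and at 44.7, 37.1 and 38.3 TPM in FAN1KO kidneys. The 3 FAN1KO cisplatin libraries stood above the other 9, the one with Y-linked RNA included. Slc31a2 rose with cisplatin in FAN1KO kidneys by a log2 of 1.06 ± 0.23 (SE, limma, adjusted p = 0.0056), a mean 2.11 times that under saline, and this held without any 1 of the 12 libraries.

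Under cisplatin Slc31a2 was 0.76 ± 0.23 (SE, log2) higher in FAN1KO than in wild-type kidneys (limma, adjusted p = 0.0386). That call was lost in 6 of 12 fits that left out 1 library: wild-type saline 2 (adjusted p = 0.0534), wild-type cisplatin 1 (0.139) or 3 (0.0601), or FAN1KO cisplatin 1 (0.139), 2 (0.0795) or 3 (0.0622). With the Y-linked term the difference was 0.77 ± 0.13 (limma, adjusted p = 0.0012), and Slc31a2 was 52.5% higher in the libraries without and 120.5% higher in those with Y-linked RNA. The interaction was 0.74 ± 0.33 (adjusted p = 0.191) without and 0.74 ± 0.19 (adjusted p = 0.0150) with that term. In wild-type kidneys cisplatin against saline gave 0.32, with a 95% interval of −0.19 to 0.83. That interval holds no change and overlaps the 0.55 to 1.57 of FAN1KO kidneys, but ends below their estimate of 1.06.

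Slc31a1, the copper importer CTR1, varied least among the transporters with more than 1 TPM, by 1.53-fold from lowest to highest library. It was at 83.7, 73.7 and 80.2 TPM in wild-type saline and at 91.9, 75.0 and 75.2 TPM in FAN1KO saline kidneys. Under cisplatin it was at 87.3, 68.6 and 69.7 TPM in wild-type and at 60.2, 61.4 and 67.3 TPM in FAN1KO kidneys, the last 3 being the lowest of the 12. Slc31a1 fell with cisplatin in FAN1KO kidneys by 0.35 on the log2 scale (SE 0.12, limma, adjusted p = 0.0402). Leaving out wild-type saline 1 (adjusted p = 0.0505) or 2 (0.0503), FAN1KO saline 1 (0.151) or 3 (0.0513), or FAN1KO cisplatin 1 (0.124) or 2 (0.107) ended the call. Against wild-type under cisplatin the difference was −0.25 ± 0.12 (adjusted p = 0.159), and −0.25 ± 0.08 (adjusted p = 0.0265) with the Y-linked term.

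The ratio of Slc31a1 to Slc31a2 TPM within a library does not depend on library scaling. It was 3.66, 3.78 and 5.79 in wild-type saline, 6.57, 3.58 and 3.43 in FAN1KO saline and 5.03, 2.42 and 2.76 in cisplatin-treated wild-type kidneys, where the library with Y-linked RNA was always the highest. In cisplatin-treated FAN1KO kidneys it was 1.35, 1.66 and 1.76, below all other libraries. The difference from cisplatin-treated wild-type kidneys was −1.03 on the log2 scale and that from FAN1KO saline kidneys −1.45 (exact permutation test, two-sided, p = 0.1 for each, the smallest possible). The plot of ratios shows the separation.

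**Figure D2:**
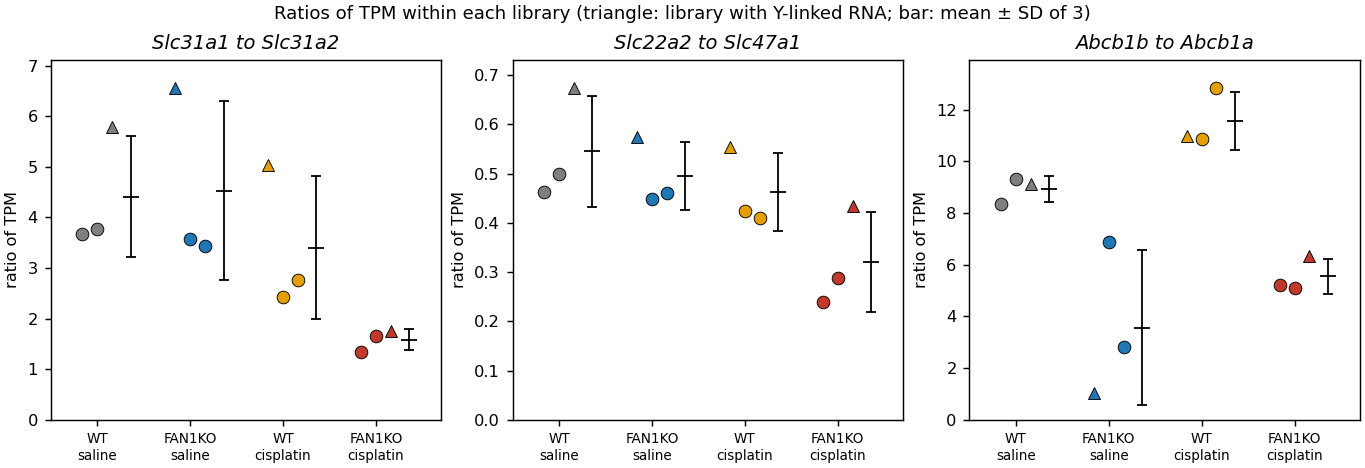
Ratio of TPM of 2 genes within each library (vertical axes, from 0) by group, with triangles for libraries with Y-linked RNA and bars for the mean ± SD of 3. The ratio of Slc31a1 to Slc31a2 is 1.35 to 1.76 in cisplatin-treated FAN1KO kidneys, and that of Abcb1b to Abcb1a is lower in FAN1KO than in wild-type kidneys under both treatments.

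Of the copper pumps, Atp7a was at 7.52, 7.57 and 7.26 TPM in cisplatin-treated FAN1KO kidneys, above every other library. It was at 4.24, 5.19 and 5.02 TPM in cisplatin-treated wild-type, 6.16, 5.98 and 3.19 TPM in wild-type saline and 4.19, 5.66 and 6.38 TPM in FAN1KO saline kidneys, with the library with Y-linked RNA lowest in 4 of 4 groups. The difference between genotypes under cisplatin was 0.54 ± 0.21 (SE, log2, limma, adjusted p = 0.0912) and 0.55 ± 0.14 (adjusted p = 0.0096) with the Y-linked term. Of the 12 fits that left out 1 library, 1 passed, that without wild-type saline replicate 3 (limma, adjusted p of 0.0293 to 0.237 over the 12). Scaling of each library by its median ratio to the others reduced it to 0.28 (adjusted p = 0.213), and the change with cisplatin in FAN1KO kidneys from 0.41 to 0.01. Atp7b was at 0.618 to 1.11 TPM, and its difference between genotypes under cisplatin was −0.04, with a 95% interval of −0.38 to 0.29 on the log2(TPM + 1) scale, which understates changes of genes this low. It passed the filter only through wild-type libraries, so its differences between genotypes are a description only.

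Abcc2, which encodes the exporter MRP2, differed by genotype whether or not cisplatin was given. It was at 28.6, 29.9 and 26.7 TPM in wild-type saline and at 45.0, 62.4 and 57.2 TPM in FAN1KO saline kidneys, groups that did not overlap. Under cisplatin it was at 34.7, 50.4 and 27.3 TPM in wild-type and at 78.0, 68.0 and 54.7 TPM in FAN1KO kidneys, again with no overlap. Under cisplatin the difference was 0.85 ± 0.21 (SE, log2, limma, adjusted p = 0.0171), and the mean TPM 1.79 times that of wild-type. Leaving out wild-type cisplatin 1 (adjusted p = 0.0554) or FAN1KO cisplatin 1 (0.0785) or 2 (0.0563) ended the call. Under saline the difference was as large, 0.92 ± 0.21, but did not pass the threshold over all genes (limma, adjusted p = 0.105, unadjusted p = 0.0013), while with the Y-linked term it did (0.92 ± 0.18, adjusted p = 0.0257). Of the 12 fits that left out 1 library, 1 passed, that without wild-type cisplatin replicate 2 (limma, adjusted p of 0.0475 to 0.317 over the 12).

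The genotype by treatment interaction of Abcc2 was −0.06, with a 95% interval of −0.72 to 0.59. Cisplatin against saline gave 0.28 (−0.19 to 0.75) in FAN1KO and 0.34 (−0.12 to 0.81) in wild-type kidneys, and neither passed. In libraries without Y-linked RNA, Abcc2 was 104.7% higher in FAN1KO than in wild-type kidneys under saline and 88.1% higher under cisplatin. In those with it, the differences were 68.5% and 57.8%.

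Abcc4, which encodes MRP4, varied 9.34-fold between libraries. It was at 16.3, 19.1 and 5.63 TPM in wild-type saline, 8.07, 34.4 and 21.4 TPM in FAN1KO saline, 11.4, 52.6 and 31.5 TPM in cisplatin-treated wild-type and 46.7, 37.9 and 38.5 TPM in cisplatin-treated FAN1KO kidneys. The 3 lowest values were those of the libraries with Y-linked RNA outside the last group, where that library lay between the others. Cisplatin against saline gave a log2 of 1.12 ± 0.61 (SE) in FAN1KO (limma, adjusted p = 0.167) and 1.08 ± 0.61 in wild-type kidneys (adjusted p = 1). With the Y-linked term these were 1.15 ± 0.35 (adjusted p = 0.0153) and 1.11 ± 0.35 (adjusted p = 0.279). The FAN1KO call was made in 1 of 22 alternative fits. In FAN1KO kidneys the mean TPM of Abcc4 rose by 51.5% in libraries without and 376.6% in those with Y-linked RNA. A single term for all groups does not describe that. In wild-type kidneys the rises were 137.7% and 102.9%. The interaction was 0.04, with a 95% interval of −1.87 to 1.95, so a difference between genotypes in this response was not detectable.

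Abcb1a, 1 of the 2 mouse genes for P-glycoprotein, was at 7.36, 7.67 and 2.04 TPM in wild-type saline and 1.16, 6.72 and 4.63 TPM in FAN1KO saline kidneys. Under cisplatin it was at 3.34, 14.5 and 12.3 TPM in wild-type and 4.32, 3.80 and 5.70 TPM in FAN1KO kidneys. The library with Y-linked RNA was the lowest of its group in 3 groups and the highest among cisplatin-treated FAN1KO kidneys. Over all libraries the genotypes under cisplatin differed by −0.79 ± 0.59 (SE, log2, limma, adjusted p = 0.353). Among the 8 libraries without Y-linked RNA the difference was −1.50 ± 0.17 (limma, adjusted p = 0.0014, where 36.7% of all genes were called), while in those with it the FAN1KO value was 70.5% higher. Endothelial markers moved with the split: Pecam1, Kdr, Emcn and Cdh5 were lower in the libraries with Y-linked RNA by a log2 of −1.40 to −1.65, and their part in the Abcb1a values was not tested.

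Abcb1b, the paralogue of Abcb1a, was at 61.5, 71.4 and 18.6 TPM in wild-type saline, 1.18, 46.1 and 13.0 TPM in FAN1KO saline, 36.8, 157 and 158 TPM in cisplatin-treated wild-type and 22.6, 19.4 and 36.2 TPM in cisplatin-treated FAN1KO kidneys. The ratio of Abcb1b to Abcb1a was 8.35 to 9.30 in wild-type against 1.02 to 6.86 in FAN1KO kidneys under saline, and 10.9 to 12.8 against 5.11 to 6.34 under cisplatin. The genotypes did not overlap under either treatment (exact permutation test, two-sided, p = 0.1 each, the smallest possible). The difference of Abcb1b between genotypes under cisplatin was −1.91 ± 0.98 (SE, log2, limma, adjusted p = 0.180). The genes are alike in sequence, so reads may have been split between them in a way that was not tested.

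Counted over the list, 2 of the 9 transporters were called under cisplatin between genotypes (Abcc2 and Slc31a2, both higher in FAN1KO), where 23.9% of the 14972 genes tested were called, 19.6% as higher and 4.37% as lower. The median log2 difference of the transporters was −0.04, beside 0.24 over all genes tested. The fit with the Y-linked term called 6, Abcc2, Slc31a2 and Atp7a as higher and Slc47a1, Slc22a2 and Slc31a1 as lower, beside 48.9% of all genes (40.3% higher and 8.6% lower). Groups did not overlap for 4 of the 9 (Abcc2, Slc31a2, Atp7a and Slc31a1), beside 44.3% of all genes. Shares of this size say nothing particular about transporters.

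Under saline none of the 9 was called between genotypes by limma, beside 0.768% of all genes. At an unadjusted p under 0.05 there was 1, Abcc2, beside 8.38% of all genes, and voom on the recovered reads also called 0, beside 0.621%. Abcc2 was called with the Y-linked term, beside 2.81%, and did not overlap between genotypes, beside 12.5%. Atp7b did not overlap either, but it passed the filter only through wild-type libraries and is not counted. With cisplatin against saline in FAN1KO kidneys 2 were called, Slc31a2 up and Slc31a1 down, beside 39.8% of all genes (34.9% higher and 4.9% lower). Groups did not overlap for 4 (Abcc4, Slc31a2, Atp7a and Slc31a1), beside 54.9%. The Y-linked term gave 6, beside 61.1% (52.9% higher and 8.16% lower): Abcc4, Slc31a2 and Atp7a as higher and Slc47a1, Slc22a2 and Slc31a1 as lower.

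In wild-type kidneys given cisplatin none of the 9 was called by limma or voom, beside 0.0601% and 0.0668% of all genes. None reached an unadjusted p under 0.05 with limma, beside 3.0%. With the Y-linked term none was called, beside 0.387%. That fit had 3 at an unadjusted p under 0.05, Slc47a1, Abcc4 and Slc31a2, beside 11.9% of all genes. None of the 9 had groups without overlap, beside 6.28%. The interaction was called for none of the 9 by limma or voom, beside 6.24% and 5.71%, and for 1 at an unadjusted p under 0.05 with limma (Slc31a2), beside 25.1%. It was called for 3 with the Y-linked term, Slc31a2, Slc47a1 and Slc22a2, beside 31.6%. These comparisons share groups and are not independent of each other. The plot of fold changes shows that the estimates were nearly the same in both fits and that the intervals narrowed.

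**Figure D3:**
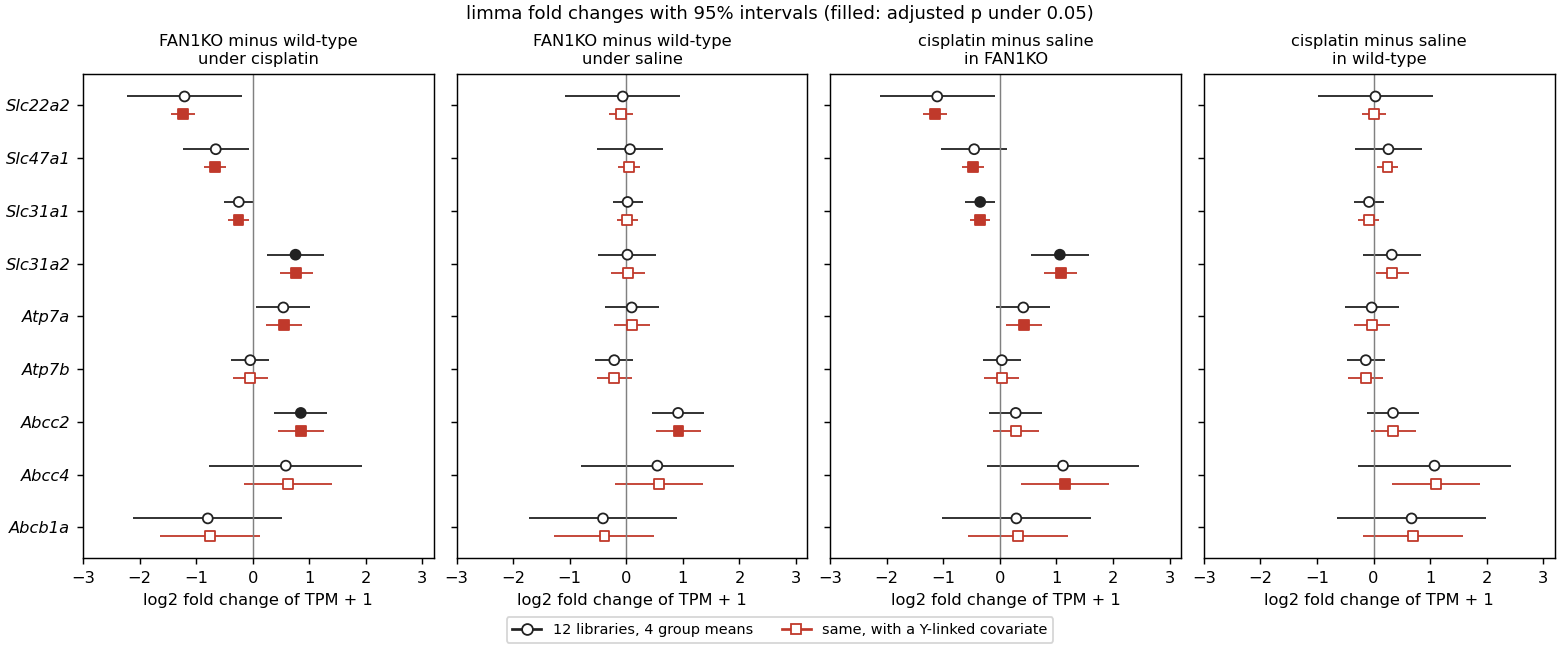
log2 fold change of TPM + 1 (horizontal axis) with 95% intervals for each transporter in 4 comparisons, from limma on 12 libraries (black circles) and with a term for Y-linked RNA (red squares), filled where the adjusted p was under 0.05. Slc22a2 under cisplatin moves from −1.20 to −1.24 and its interval narrows, and none of the 9 is filled for cisplatin against saline in wild-type kidneys.

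The scale of the libraries bears on these directions, because the median gene was 0.24 (log2) higher in FAN1KO than in wild-type kidneys under cisplatin. When each library was scaled by its median ratio this median became −0.02, and the genes called went from 2931 higher and 654 lower to 1300 higher and 1154 lower. Slc22a2 (−1.51), Slc47a1 (−0.96) and Slc31a1 (−0.55) then lay further below 0, while Slc31a2 (0.46, limma, adjusted p = 0.0330) and Abcc2 (0.55, adjusted p = 0.0684) stayed above it. Relative to the median gene, the 5 named transporters kept their directions.

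Other genes of the same families gave a wider view. Slc22a4 and Slc22a5 were lower in FAN1KO than in wild-type kidneys under cisplatin, where 4.37% of all genes were called lower. Slc22a4, the carnitine and ergothioneine transporter OCTN1, was at 56.0, 34.0 and 45.9 TPM in wild-type and 30.3, 21.6 and 23.2 TPM in FAN1KO kidneys, a difference of −0.82 ± 0.18 (SE, log2, limma, adjusted p = 0.0110). Slc22a5, the carnitine importer OCTN2, was at 152, 135 and 166 TPM in wild-type and 89.3, 93.8 and 112 TPM in FAN1KO kidneys, a difference of −0.62 ± 0.13 (limma, adjusted p = 0.0097). The groups did not overlap for either gene, and neither call was lost when any 1 of the 12 libraries was left out. Slc22a21, their relative in the mouse, named after its values were seen, was at 3.83 to 4.51 TPM in wild-type and 4.56 to 5.81 TPM in FAN1KO kidneys and was not called. Slc22a3 and Slc47a2, relatives of the first transporters, were at 0.411 to 1.13 TPM and 0.109 to 1.27 TPM and were not tested.

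Of 14 genes of copper handling, 13 were tested, 4 were higher in FAN1KO than in wild-type kidneys under cisplatin and none lower, beside 19.6% and 4.37% of all genes, with a median of 0.25 beside 0.24 over all genes. The fit with the Y-linked term called 6 higher and 1 lower (Steap3), beside 40.3% and 8.6%. Atox1, the chaperone that hands copper to ATP7A and ATP7B, was at 262, 292 and 290 TPM in wild-type and 506, 504 and 491 TPM in FAN1KO kidneys, 0.83 ± 0.10 (SE, log2, limma, adjusted p = 0.0006). Median-ratio scaling reduced the difference of Atox1 to 0.52 (adjusted p = 0.0513). The metallothioneins Mt1 and Mt2, small proteins that bind zinc and copper, were higher by 1.83 ± 0.53 (adjusted p = 0.0308) and 2.48 ± 0.58 (adjusted p = 0.0135), and Cp, the plasma copper oxidase ceruloplasmin, by 2.31 ± 0.65 (adjusted p = 0.0279). Leaving out FAN1KO cisplatin 1 or 2 ended the calls of Mt1 (adjusted p = 0.113 and 0.109), Mt2 (0.0637 and 0.0522) and Cp (0.102 and 0.0687), and leaving out wild-type cisplatin 1 those of Mt1 (0.112) and Cp (0.0981). Mt1 was lower in each library with Y-linked RNA than in the others of its group, 645 TPM against 1391 and 1650 TPM among cisplatin-treated FAN1KO kidneys.

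**Figure D4:**
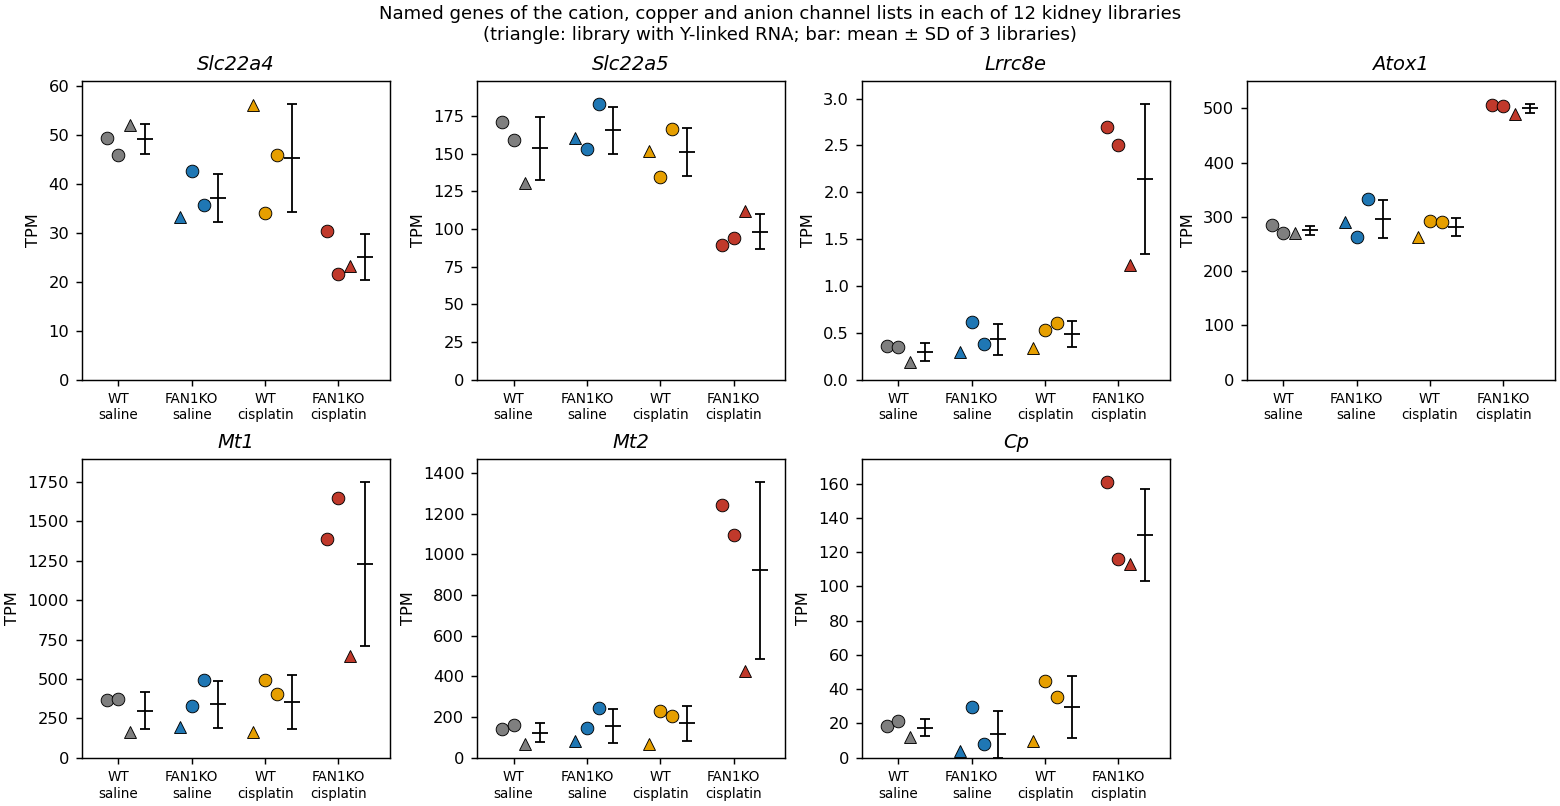
TPM (vertical axes, from 0) of named cation transporter, copper handling and anion channel genes in each of 12 libraries by group, with triangles for libraries with Y-linked RNA and bars for the mean ± SD of 3. The FAN1KO cisplatin libraries lie at 491 to 506 TPM for Atox1, above the other 9, and below the cisplatin-treated wild-type libraries for Slc22a4 and Slc22a5.

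None of 7 other ABC exporters was called under cisplatin between genotypes over all libraries, beside 23.9% of all genes, with a median of 0.28. The fit with the Y-linked term called 4 of the 7 (Abcc1, Abcc10 and Abcc6 higher and Abcg2 lower), beside 48.9%. Platinum drugs can also enter cells through the volume-regulated anion channel. Of its 5 subunits, all but Lrrc8e were tested and not called over all libraries, where 23.9% of all genes were. Among those not called were Lrrc8d, at 35.2 to 48.4 TPM, and Lrrc8a, at 15.0 to 22.6 TPM. Lrrc8e was at 0.335, 0.526 and 0.605 TPM in wild-type and 2.70, 2.50 and 1.22 TPM in FAN1KO kidneys, and since it passed the filter only through the group where it was high, it is given with no test. Of 5 markers of injured tubule, Havcr1, Lcn2, Vcam1 and Sox9 were higher in the same comparison, beside 19.6% of all genes. Krt20 passed the filter only through cisplatin-treated FAN1KO kidneys and is given with no test. It was at 181, 119 and 55.5 TPM there and at 0.720, 4.98 and 7.64 TPM in cisplatin-treated wild-type kidneys. The summed TPM of the 5 was 785 to 1165 in cisplatin-treated FAN1KO kidneys and 33.8 to 149 in cisplatin-treated wild-type ones. The part of these markers in the values above was not tested.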

How the data were processed

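TPM values of 27179 genes, keyed by NCBI Gene number, were deposited by the authors as 1 table, and each library's values sum to 1000000. The submitters' processing notes name the build mm10 and limma. The aligner and the annotation are not given in the sources used here. Groups came from the labels. The transporters and the other gene lists were chosen with earlier results of these data known.

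The 14972 genes that reached 1 TPM in 3 or more libraries were tested as log2(TPM + 1) with limma 3.58.1 in R 4.3.3 (4 group means, empirical Bayes with trend, Benjamini-Hochberg adjustment, threshold 0.05). Single values also had two-sided exact permutation tests, whose smallest p for 3 against 3 is 0.1. Fold changes refer to the log2(TPM + 1) scale and understate changes of low genes. The labels name no litters or cages, so p-values measure the spread between these samples.

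Whole reads were read back from the steps between low TPM values (all 232991 values above 0 came out whole, tolerance 0.05) and gave 37196407 to 82935883 reads per library, with counting error small except for Atp7b. They served for limma's voom as an alternative, which called 2, 0, 2, 0 and 0 transporters in the 5 comparisons. Of all genes it called 24.7%, 0.621%, 38.2%, 0.0668% and 5.71% in the same order. Other alternatives were the pseudocount, the filter, median-ratio scaling, a replicate block, a term for Y-linked RNA, the libraries without it, and each library left out. Median-ratio scaling together with the term for Y-linked RNA was chosen after seeing the data. Both the fit and the recovery of reads were tested on simulated data.

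Named genes were the 9 transporters, the genes of 4 related lists called between genotypes under cisplatin or in the interaction (at most 4 a list and comparison), and Slc22a3, Slc47a2 and Abcb1b. One further gene that the rule names is not reported here. The 3 genes most like Slc22a2, Slc47a1 and Slc31a1 by Pearson r were also named. Gene coordinates and promoters are from RefSeq on GRCm38.p6, of which mm10 is the browser name.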

Additional observations from a re-analysis of the deposited data

Results flagged for a closer look

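The interaction term of the limma fit on all 12 libraries was called for Atox1 and Slc22a5, and for no other transporter or named gene. Of all genes tested, 6.24% were called in it. Genes of the related lists were named partly because they were called in this interaction, so the calls say nothing particular about those lists. For Atox1, the copper chaperone, cisplatin against saline gave a log2 of 0.76 in FAN1KO kidneys and 0.032 in those of wild-type mice, a difference of 0.73 ± 0.14 (SE, limma, adjusted p = 0.0186), and all 3 cisplatin-treated FAN1KO libraries lay above the other 9. It was lost without wild-type saline replicate 1 (adjusted p = 0.0540) or FAN1KO cisplatin replicate 1 (0.0501) or 2 (0.0505), and with median-ratio scaling (0.37, adjusted p = 0.403), also with the term for Y-linked RNA added (0.37, adjusted p = 0.107).

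For Slc22a5, the carnitine importer, cisplatin against saline gave −0.75 in FAN1KO kidneys and −0.021 in those of wild-type mice, a difference of −0.73 ± 0.19 (SE, limma, adjusted p = 0.0487). All 3 cisplatin-treated FAN1KO libraries (89.3, 93.8 and 112 TPM) lay below the other 9 (131 to 183 TPM). The call lies at the threshold: it stayed in only 1 of 12 fits that left out 1 library (adjusted p of 0.0335 to 0.126), and it was lost with median-ratio scaling (−1.09, adjusted p = 0.0573), a pseudocount of 0.1 (0.0543), no filter (0.0555), no trend (0.0677), the replicate block (0.0780) and voom (0.0505). With the term for Y-linked RNA the adjusted p of Slc22a5 was 0.0157.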

How the results depend on the processing

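The directions of the transporters called over all libraries held under every alternative run, but the number called did not. For FAN1KO against wild-type under cisplatin the 2 transporters called became 1 without the filter, with only the 6 libraries compared, with median-ratio scaling and with the replicate block, 6 with the term for Y-linked RNA or in the libraries without it, and 5 with that term and median-ratio scaling together. Under saline 0 became 1 with median-ratio scaling, with the Y-linked term and with both. For cisplatin in FAN1KO kidneys 2 became 1 with only 6 libraries or no trend, 6 with the Y-linked term, and 4 in the libraries without Y-linked RNA or with both. For the interaction 0 transporters became 3 with the Y-linked term, in the libraries without Y-linked RNA and with both. Leaving out 1 library gave 0 to 3, 0 to 1, 1 to 3, 0 to 0 and 0 to 0 in the 5 comparisons. The shares of all genes called in those fits were 10.3 to 25.6%, 0.287 to 0.862%, 24.2 to 42.7%, 0 to 0.274% and 1.8 to 7.99%. The shares of all genes called moved too. Beside the transporters' counts between genotypes under cisplatin they were 16.8% without the filter, 14.5% with 6 libraries, 16.4% with median-ratio scaling, 19.7% with the block, 48.9% with the Y-linked term, 36.7% in the libraries without Y-linked RNA and 35.5% with both. Under saline they were 0.955%, 2.81% and 2.85% in the order given, for cisplatin in FAN1KO kidneys 35.7%, 39.2%, 61.1%, 52.8% and 47.8%, and for the interaction 31.6%, 16.3% and 19.3%. The causes were not tested. Same-numbered libraries correlated at −0.24 to −0.14 on average. In every comparison the library with Y-linked RNA had a different number in the 2 groups, so this cannot show whether the numbers pair the samples. Among the transporters the replicate block ended 1 call, that of Slc31a2 between genotypes under cisplatin (limma, adjusted p = 0.0610).

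Signs turned only for values that passed no threshold over all libraries. In the libraries without Y-linked RNA these were, under saline, Slc47a1 (−0.051), Slc31a1 (−0.064) and Atp7a (−0.011), for cisplatin in FAN1KO kidneys Atp7b (−0.055) and Abcb1a (−0.38), and in the interaction Atp7b (−0.028), Abcc4 (−0.55) and Abcb1b (−1.46). Median-ratio scaling, alone and with the Y-linked term, turned cisplatin in FAN1KO kidneys for Atp7b (−0.16 and −0.16), Abcc2 (−0.18 and −0.18) and Abcb1a (−0.050 and −0.023), cisplatin in wild-type kidneys for Slc22a2 (−0.070 and −0.11), and the interaction of Abcc4 (−0.31 and −0.31) and Abcb1b (−0.22 and −0.21). Voom turned the interaction of Abcc4 (−0.028). Leaving out 1 library gave ranges across 0 between genotypes for Atp7b under cisplatin (−0.11 to 0.056) and, under saline, for Slc22a2 (−0.43 to 0.24), Slc47a1 (−0.19 to 0.21), Slc31a1 (−0.073 to 0.072), Slc31a2 (−0.17 to 0.21), Atp7a (−0.16 to 0.24) and Abcb1a (−0.91 to 0.13). It did so for cisplatin in FAN1KO kidneys for Atp7b (−0.013 to 0.067) and Abcb1a (−0.25 to 0.67), in wild-type kidneys for Slc22a2 (−0.28 to 0.34) and Atp7a (−0.28 to 0.10), and in the interaction for Abcc2 (−0.26 to 0.17), Abcc4 (−0.54 to 0.53), Abcb1a (−0.96 to 0.11) and Abcb1b (−1.11 to 1.10). With 3 animals a group, 1 of them with Y-linked RNA, small differences were not detectable.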
